A study of Homo sapiens with 9 samples.

Results

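The cytosolic ribosomal protein genes were taken from the table of gene counts by symbol: every gene whose symbol is RPL or RPS followed by a digit, with RPLP0, RPLP1, RPLP2 and RPSA. Kinases of ribosomal protein S6, the Y-linked copies of RPS4 and RPS19BP1 were left out, 13 rows in all. The rule found 88 of the 19317 genes listed. Of these, 31 encode proteins of the small subunit and 46 proteins of the large subunit, among them the 3 stalk proteins. A further 8 are paralogues with a standard partner, and 3 are read-through loci whose transcripts run into a neighbouring gene. FAU and RACK1, which also encode subunit proteins, carry other kinds of symbols and were read separately.

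The study compared RNA from HepG2, a human line grown from a liver carcinoma, in a control group and in a pair of steatosis models with 3 samples each. Every sample carried the wild-type genotype, and every medium held 10% serum and 1% antibiotics. The WT group was kept in RPMI. The DNL group, named for de novo lipogenesis, grew in DMEM that contained T0901317 at 10 µM, an agonist of the liver X receptors, and insulin at 10 µg/ml over 1 week. The OA group grew in DMEM and was given oleic acid at 25 µM on an albumin carrier of 11% for 6 h. No group received DMEM alone or the carrier alone, so medium, added compounds and duration cannot be told apart in any comparison.

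Ribosomal proteins fold onto ribosomal RNA in the nucleolus to form the subunits, and nearly every one is needed in a single copy per ribosome. Their mRNAs are among the most abundant in a growing cell, and most begin with a C followed by a run of pyrimidines, the terminal oligopyrimidine (TOP) motif, through which mTORC1 and LARP1 control their translation. In the liver the pool of ribosomes is known to rise and fall with nutrient supply.

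Libraries were depleted of ribosomal RNA, and total estimated counts per library ran from 7836520 (OA replicate 3) to 43043347 (WT replicate 1). Levels are CPM, which are counts scaled to a common library size with edgeR's TMM factors. A gene counted as called, and is said to have risen or fallen, when its p from edgeR's quasi-likelihood test was under 0.05 after Benjamini-Hochberg adjustment over the 13636 genes fitted in all 9 samples. The labels do not state whether replicates came from separate cultures, and p-values then reflect variation among these libraries, which may be technical. All 10 hepatocyte markers were at 1 CPM or more in each group, and their summed level was 43703 to 45341 CPM in WT, 77555 to 79675 CPM in DNL and 14311 to 16321 CPM in OA. Of 6 fibroblast markers, 5 reached 1 CPM in OA, where their sum ran from 36.7 to 875 CPM, against 10.8 to 14.9 CPM in WT and 3.16 to 3.39 CPM in DNL. Among them COL1A1 measured 19.3, 85.0 and 537 CPM in OA replicates 1 to 3. The list was mixed: in OA against WT 2 of its 5 tested genes were called higher and 1, PDGFRB, lower (log2 fold change -1.10). The leukocyte, endothelial and cholangiocyte lists summed to 1057 to 1092, 0.923 to 2.14 and 802 to 955 CPM in OA. In WT these lists summed to 979 to 990.2, 1.52 to 1.96 and 459 to 475 CPM, and in DNL to 1618 to 1712, 5.27 to 6.92 and 844 to 954 CPM. In OA against WT 1 of 4 tested leukocyte markers was called higher (LYZ) and 1 lower (CD14). Of 4 tested cholangiocyte markers, 2 were called higher (KRT19 and KRT7) and 1 lower (SOX9). CD3E and CFTR had no counts in any group. KDR, COL1A2, LUM and KRT7 had none in WT and DNL, and CDH5 had none in OA. The part of these marker differences in the results that follow was not tested.

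The start of a transcript shows the TOP motif, so start sites were read for the members with a promoter entry in RefSeq (GRCh38.p14). Of the 88 members 70 had an entry. The 18 without one included RPL3L, RPL5, RPL7, RPL8, RPL23, RPL23A, RPL30, RPL37, RPL39L, RPS2, RPS10-NUDT3, RPS15A and RPS20. A TOP start was scored where an annotated start was a C that opened a run of at least 5 pyrimidines. It was present in 48 of 70 members (68.6%), against 789 of 11027 tested genes with an entry (7.16%) and 1404 of all 27305 genes with an entry (5.14%). RPL36A and RPL36A-HNRNPH2 have the same window, which is counted for both. By class, 18 of 24 small subunit genes, 28 of 38 large subunit genes and 1 of 6 paralogues had it. The windows below run from 30 bases before the annotated start to 20 bases into the transcript, 5′ to 3′ on the strand of the gene, and capitals mark the C and its pyrimidine run. They are shown because RPS6, RPS23, RPL31 and RPL22 were lower in OA, RPL39 and RPL38 higher in DNL, RPSA and RPL7A higher in OA, and RPLP0 called in no comparison.
RPS6 (chr9:19380217-19380266, minus strand): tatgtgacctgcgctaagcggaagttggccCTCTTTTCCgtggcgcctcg
RPS23 (chr5:82278335-82278384, minus strand): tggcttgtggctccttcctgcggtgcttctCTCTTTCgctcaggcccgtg
RPL31 (chr2:101002259-101002308, plus strand): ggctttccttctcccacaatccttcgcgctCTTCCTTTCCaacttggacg
RPL22 (chr1:6199576-6199625, minus strand): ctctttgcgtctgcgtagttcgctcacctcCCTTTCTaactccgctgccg
RPL39 (chrX:119791611-119791660, minus strand): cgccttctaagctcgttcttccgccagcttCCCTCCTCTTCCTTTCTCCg
RPL38 (chr17:74203648-74203697, plus strand): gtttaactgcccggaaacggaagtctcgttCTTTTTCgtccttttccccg
RPSA (chr3:39406690-39406739, plus strand): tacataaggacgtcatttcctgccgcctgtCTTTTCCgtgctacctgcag
RPL7A (chr9:133348188-133348237, plus strand): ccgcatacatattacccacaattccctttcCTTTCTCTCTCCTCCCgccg
RPLP0 (chr12:120201092-120201141, minus strand): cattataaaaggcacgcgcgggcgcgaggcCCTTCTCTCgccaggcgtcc
The pyrimidine run was 19 bases long in RPL39, 16 in RPL7A, 9 in RPS6 and RPLP0, 10 in RPL31, and 7 in RPS23, RPL22, RPL38 and RPSA. A TOP start was found in 38 of 54 members lower in OA than in WT, 8 of 13 that were not called and 2 of 2 that were higher.

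RPL4 and RPL27 had an annotated start on an A, and their windows are shown since RPL4 fell most in DNL and RPL27 fell most in OA among the subunit genes. Both windows hold a pyrimidine run further into the transcript. The score reads only the annotated start, so a TOP start at another base would be missed.
RPL4 (chr15:66504836-66504885, minus strand): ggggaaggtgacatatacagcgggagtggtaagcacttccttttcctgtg
RPL27 (chr17:42998389-42998438, plus strand): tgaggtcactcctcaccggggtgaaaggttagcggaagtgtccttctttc
Other motifs were searched on both strands in the 300 bases from 250 before to 50 after each start. The ETS-type word CCGGAAG was in 24 of 70 members (34.3%) and in 21.3% of tested genes with an entry. The YY1-type word AAGATGGC was in 7 members (10.0%) and 6.08% of tested genes, and the SP1-type word GGGCGG in 41 members (58.6%) and 74.5% of tested genes. TATAAA was in 8 members (11.4%) and 9.14% of tested genes. A match describes these letters only.

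The members' share of all counts was 3.06, 2.76 and 2.88% in WT replicates 1 to 3, 2.47, 2.46 and 2.39% in DNL, and 2.34, 2.36 and 2.28% in OA. The WT libraries lay above all others. Small subunit genes took 1.24% ± 0.0633 of counts in WT, 1.02% ± 0.0205 in DNL and 0.985% ± 0.0249 in OA (SD, n = 3), and large subunit genes 1.60% ± 0.0879, 1.38% ± 0.0278 and 1.30% ± 0.0273. A share moves with what else is abundant, and the 20 most abundant other genes took 13.2% of counts in WT, 19.6% in DNL and 9.06% in OA. Without those genes the share was 3.34% ± 0.179 in WT, 3.04% ± 0.0686 in DNL and 2.56% ± 0.0511 in OA. With and without those genes the 3 groups were separate, with the WT libraries highest and the OA libraries lowest. In bulk RNA, fewer cells of a type and less RNA per cell cannot be told apart.

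After TMM scaling the median member stood at -0.03, -0.03 and -0.16 (log2 difference from its WT mean) in DNL replicates 1 to 3, and at -0.40, -0.38 and -0.44 in OA. All OA libraries were therefore lower than all DNL libraries in this median. In each OA library 77 to 81 of the 87 tested members were below their WT mean. WT replicate 1 stood at 0.10, with 83 of 87 members above the WT mean, and WT replicates 2 and 3 at -0.08 and -0.03. The spread among the WT libraries was thus larger than the median difference of DNL.

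**Figure D1:**
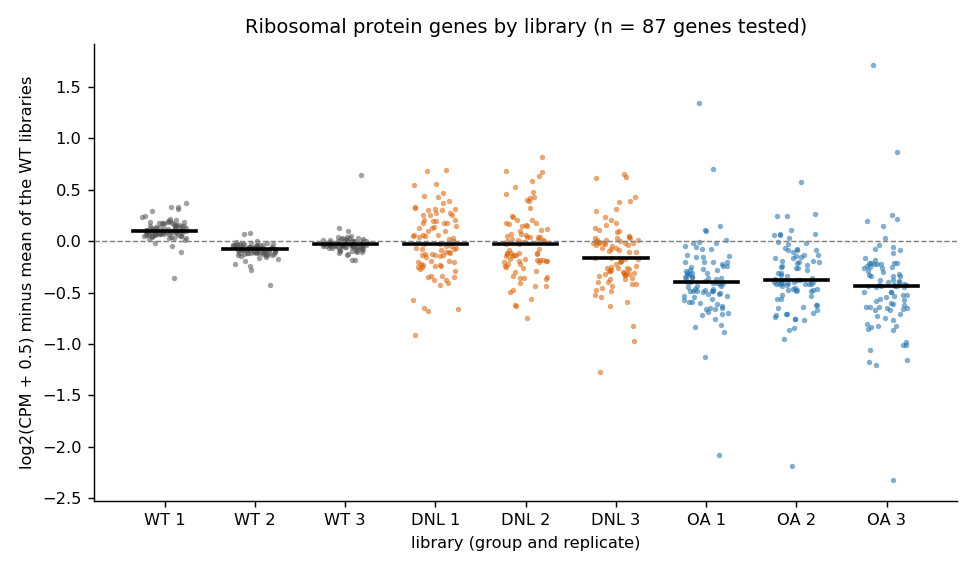
Each point is 1 of the 87 tested ribosomal protein genes in 1 library, as log2(CPM + 0.5) minus its mean over the 3 WT libraries, and black bars are medians. The OA medians lie between -0.44 and -0.38, while DNL medians lie between -0.16 and -0.03 and WT replicate 1 at 0.10.

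The comparison of OA with WT asks how these genes stood in the cells given fatty acid. Of 87 members tested, 67 fell and 3 rose, whereas 29.7% of all tested genes were called lower and 30.4% higher. One of the 3, RPL39L, averaged 6.22 counts per library and had no WT library at the level that the filter on low counts asks for, so its call carries no weight. The median log2 fold change of members was -0.41, and that of all tested genes was -0.03. The differences were small for single genes: the middle range, from the lower to the upper quartile, ran from -0.56 to -0.24. Values did not overlap between OA and WT for 68 members that were lower (33.2% of all tested genes) and 3 that were higher (32.5%). When counts were scaled by library totals alone, the all-gene median moved by 0.07, and 64 members were lower and 3 higher. With the trend over GC content and length removed, 66 fell and 3 rose, and without OA replicate 3, in which fibroblast markers were highest, 63 fell and 3 rose. Leaving out that library does not remove the marker difference, since every OA library summed to at least 36.7 CPM and no WT library to over 14.9 CPM.

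In the small subunit, 22 of 31 genes fell and 1 rose in OA against WT. RPS6, the substrate of the S6 kinases, measured 819, 721 and 729 CPM in WT and 481, 485 and 451 CPM in OA. The OA values lay below every WT and DNL value (log2 fold change -0.68, SE 0.0606, adjusted p = 1.05e-06). RPS23, which sits in the decoding centre, fell from 201 ± 26.3 to 110.2 ± 11.2 CPM, and RPS15A from 854 ± 52.7 to 498 ± 29.01 CPM. RPS12 fell by 0.71 on the log2 scale. RPS27A, made as a fusion with ubiquitin, measured 285, 215 and 228 CPM in WT and 187, 148 and 119 CPM in OA, groups that were uneven but did not overlap (adjusted p = 0.0126). RPS14 and RPS19, known from inherited or acquired anaemias of ribosome deficiency, fell by 0.41 and 0.23. RPS3, at the mRNA entry channel, was at 451 ± 18.9 CPM in WT and 423 ± 19.6 CPM in OA and was not called (adjusted p = 0.0979). It was called lower without OA replicate 2 (adjusted p = 0.0491) or WT replicate 2 (adjusted p = 0.0394).

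RPSA, also known as the laminin receptor, was the small subunit gene that rose. It measured 409, 389 and 391 CPM in WT, 383, 399 and 421 CPM in DNL and 426, 470.4 and 472 CPM in OA. Its OA values lay above all 6 others (log2 fold change against WT 0.20, SE 0.0487, adjusted p = 0.00292). The window of RPSA shown above has a TOP start, like those of RPS6 and RPS23. Another 8 small subunit genes were not called. Among them RPS9 was uneven within groups, at 12.3, 13.1 and 25.1 CPM in WT, 11.8, 28.5 and 6.32 CPM in DNL, and 41.3, 15.2 and 53.6 CPM in OA.

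In the large subunit, 39 of 46 genes fell and 1 rose in OA against WT. RPL27 had the lowest fold change of any subunit gene, with 103, 67.1 and 72.9 CPM in WT and 43.04, 40.9 and 34.3 CPM in OA. Its OA values were below all others, although WT replicate 1 stood well above the other WT libraries (log2 fold change -1.03, SE 0.199, adjusted p = 0.00234). RPL12, at the base of the stalk, fell from 246 ± 28.6 to 133 ± 13.7 CPM. RPL37 fell from 172 ± 14.5 to 95.2 ± 7.19 CPM, and RPL31, near the exit of the nascent chain tunnel, from 218 ± 15.1 to 129 ± 6.33 CPM. RPL5 and RPL11, which carry 5S ribosomal RNA and bind MDM2 when in excess, fell by 0.39 and 0.79, where RPL11 was uneven at 87.5, 59.6 and 64.4 CPM in WT. RPL3 and RPL10, beside the peptidyl transferase centre, fell by 0.28 and 0.27, and RPL10A and RPL13A by 0.47 and 0.53.

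RPL7A was the large subunit gene that rose, from 242, 221 and 229 CPM in WT to 255, 278 and 263 CPM in OA. The groups did not overlap (log2 fold change 0.20, SE 0.052, adjusted p = 0.00422). It was also higher in DNL. The stalk, which recruits translation factors, was mixed. RPLP0, its base protein and a common reference gene in PCR work, measured 1007, 969 and 1003 CPM in WT and 942, 1018 and 1015 CPM in OA (log2 fold change -0.002, adjusted p = 0.976). RPLP1 and RPLP2, which bind RPLP0 as dimers, fell from 545 ± 57.1 to 399.9 ± 49.2 CPM and from 273 ± 19.5 to 220.3 ± 16.3 CPM. RPL38, RPL39, RPL23A, RPL24 and RPL36A were the other large subunit genes that were not called.

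**Figure D2:**
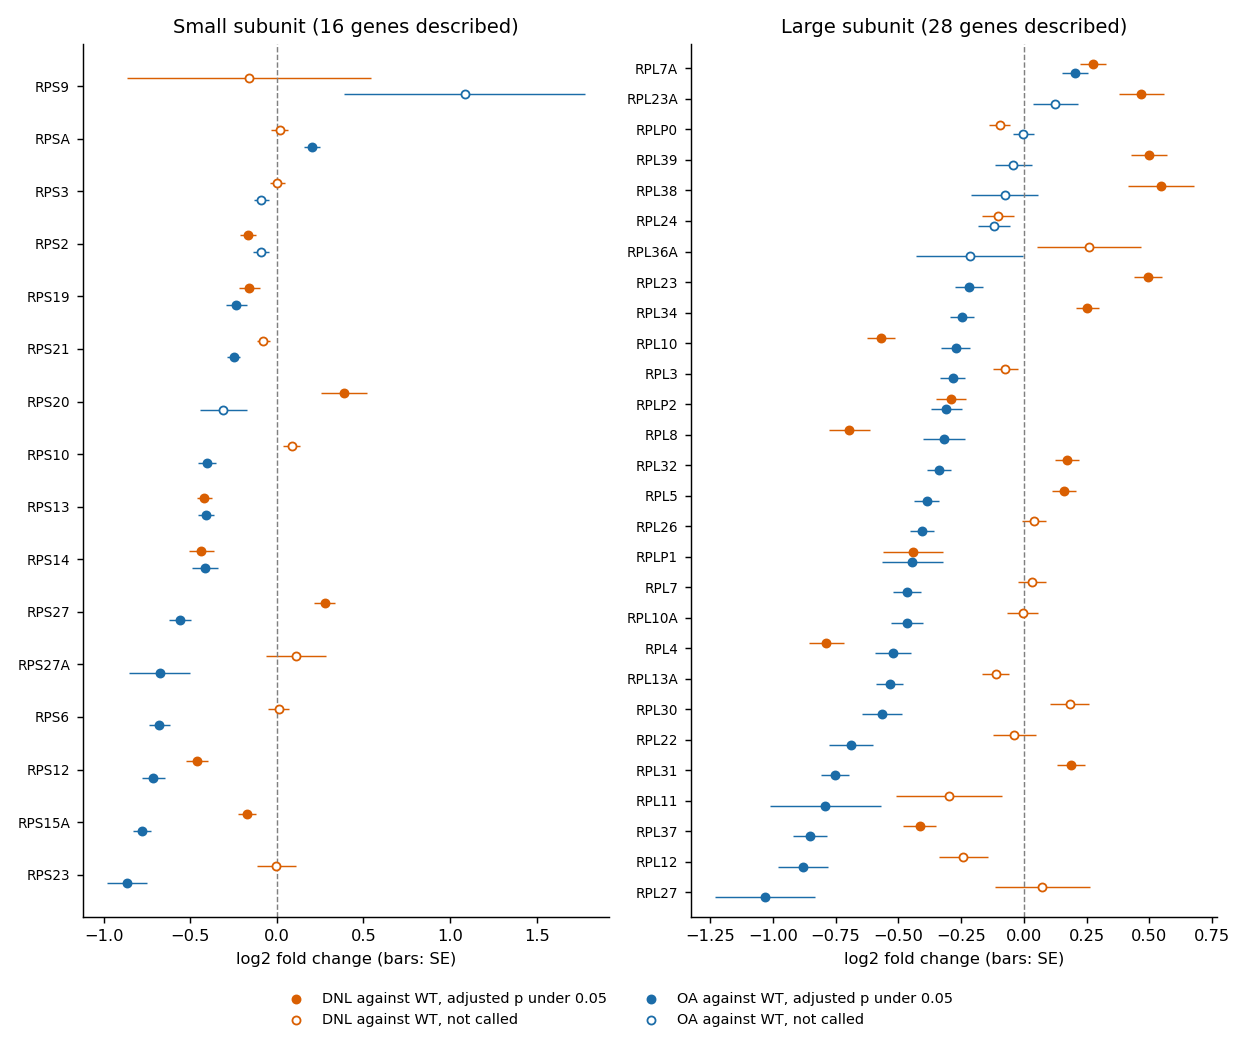
Log2 fold change of the small subunit genes (left) and large subunit genes (right) that are named in the text, in DNL and OA against the same WT libraries. Horizontal bars are standard errors, and filled points passed an adjusted p of 0.05. Filled OA points are to the left of 0 except for RPSA and RPL7A, while filled DNL points lie on both sides.

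The comparison of DNL with WT asks how the same genes stood after the lipogenic medium. Here 29 of 87 members fell and 13 rose, against 26.8% of all tested genes called lower and 27.1% called higher. The share of members that fell, 33.3%, was near that background, and 14.9% rose. The median was -0.08 for members and -0.02 for all tested genes. Single members differed in both directions: the standard deviation of their log2 fold changes was 0.33, against 0.91 for all tested genes. Values did not overlap for 33 lower and 14 higher members, where the same held for 32.8% and 31.8% of all tested genes. These counts depended on WT replicate 1, without which 19 fell and 22 rose. When counts were scaled by library totals alone, the all-gene median moved by -0.17, 52 members were lower and 6 higher, and 32.2% of all calls were higher instead of 50.3%. With the trend over GC content and length removed, 44 fell and 7 rose.

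In the small subunit 13 genes fell and 2 rose in DNL against WT. RPS12 measured 448, 402 and 433 CPM in WT and 335, 304 and 293 CPM in DNL, without overlap (log2 fold change -0.46, adjusted p = 6.33e-05). RPS14 fell from 282 ± 18.9 to 209 ± 18.9 CPM and RPS13 from 553 ± 30.5 to 413 ± 14.2 CPM. RPS19 fell by 0.16, a call lost without DNL replicates 1 or 2, OA replicate 2 or WT replicates 1 or 3 (adjusted p = 0.158, 0.139, 0.0527, 0.153 and 0.143). RPS2 fell by 0.17, and its call was lost without WT replicate 1 (adjusted p = 0.0548). RPS27 and RPS20 rose by 0.28 and 0.39, and RPS27 stood at -0.09 and was not called once the GC content and length trend was removed. The call of RPS20 was lost without DNL replicates 1 or 2, OA replicate 2 or WT replicates 2 or 3 (adjusted p = 0.102, 0.075, 0.0604, 0.117 and 0.106). RPS6, RPS23, RPS3, RPSA and RPS27A were not called. RPS6 was at 811, 768 and 706 CPM in DNL, within the range of WT for 2 of the 3 libraries.

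RPL4, RPL8 and RPL10 had the lowest fold changes in DNL among subunit genes. RPL4, which lines the exit tunnel, measured 431, 386 and 396 CPM in WT and 256, 241 and 206 CPM in DNL. Every DNL value was below every WT and OA value (log2 fold change against WT -0.79, SE 0.07, adjusted p = 1.99e-06). RPL8, of the peptidyl transferase centre, measured 203, 171 and 179.9 CPM in WT and 115, 124 and 103 CPM in DNL, again without overlap (log2 fold change -0.69). RPL10, among the last proteins to join the subunit, fell from 579 ± 22.8 to 389.5 ± 33.6 CPM. RPLP1 and RPLP2 fell by 0.44 and 0.29. RPLP0 was at 928 ± 35.2 CPM in DNL and was not called (adjusted p = 0.067). It was called lower without DNL replicate 3 (adjusted p = 0.026) or OA replicate 1 (adjusted p = 0.0252). RPLP0 was also called lower with limma-voom in place of edgeR (adjusted p = 0.0328). The same held under scaling by library totals (adjusted p = 0.000144) and with the GC content and length trend removed (adjusted p = 0.00996). In all 13 large subunit genes fell and 9 rose.

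RPL38, RPL39, RPL23 and RPL23A rose most among subunit genes in DNL. RPL38, which in mice is needed for translation of Hox mRNAs, measured 81.9, 68.7 and 74.3 CPM in WT and 121, 119.6 and 88.3 CPM in DNL. The groups did not overlap, with DNL replicate 3 nearest to WT (log2 fold change 0.55, SE 0.13, adjusted p = 0.00585). RPL39, a small protein of the exit tunnel, measured 235, 204 and 219 CPM in WT and 296, 339.6 and 295 CPM in DNL, also without overlap. Its log2 fold change of 0.50 was 0.20 and not called with the GC content and length trend removed (adjusted p = 0.0745). RPL23 rose from 548 ± 23.97 to 773 ± 46.2 CPM, and RPL23A, at the docking site of the signal recognition particle, from 192 ± 5.20 to 266 ± 32.2 CPM. The remaining rises, of RPL7A, RPL34, RPL31, RPL32 and RPL5, were between 0.16 and 0.28. RPL5 lost its call without WT replicates 2 or 3 (adjusted p = 0.0573 and 0.058) and RPL31 without WT replicate 2 (adjusted p = 0.073). None of these 5 was called under scaling by library totals, where RPL5 stood at -0.0038, and RPL34 stood at -0.02 with the GC content and length trend removed. RPL11, RPL3, RPL10A and RPL13A were not called. RPL13A was called lower without WT replicate 2 (adjusted p = 0.0144), and RPL11 with replicate number as a further factor (adjusted p = 0.027).

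**Figure D3:**
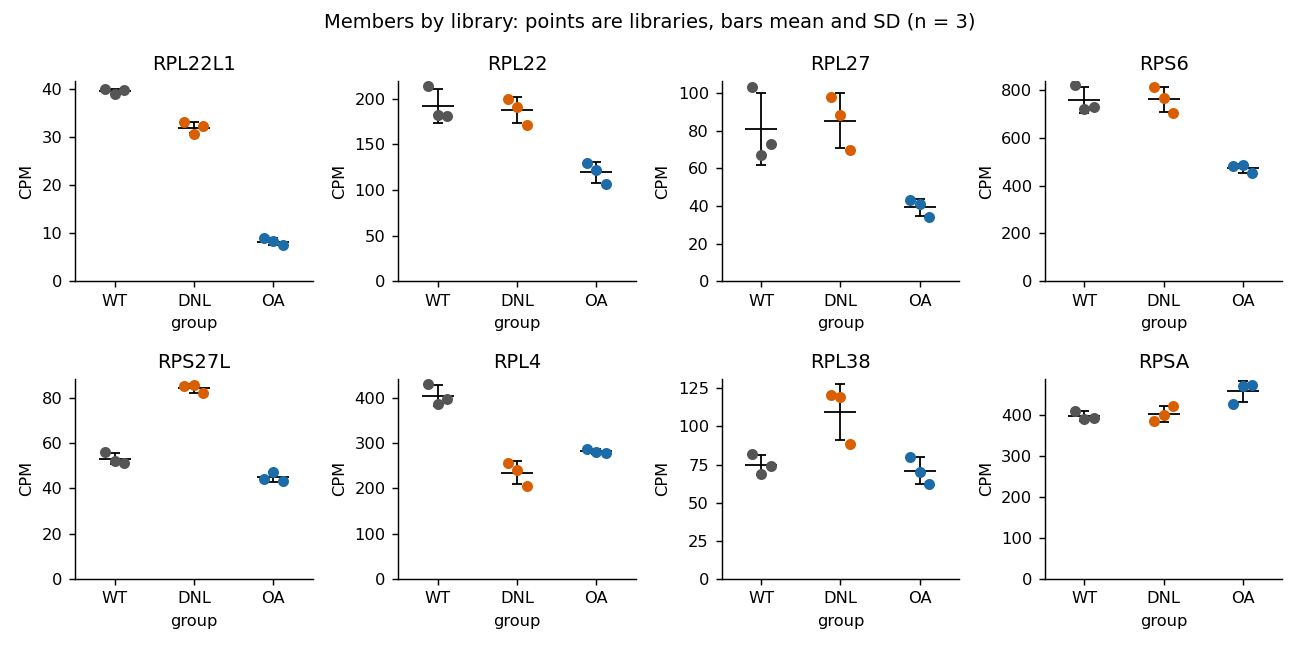
TMM-scaled CPM of 8 members in each library, with the mean and SD of 3 libraries per group on axes that start at 0. RPL22L1, RPL22, RPL27 and RPS6 have their lowest values in OA, RPS27L and RPL38 their highest in DNL, RPL4 its lowest in DNL, and RPSA its highest in OA.

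OA and DNL share the WT libraries in the comparisons above, so the difference between the models was tested directly. Of 87 members 53 were lower and 4 higher in OA than in DNL, while 31.9% and 30.9% of all tested genes were called lower and higher. The median was -0.36 for members and -0.01 for all tested genes. Values were without overlap for 55 lower and 4 higher members, and for 34.0% and 32.3% of all tested genes. In the small subunit 19 of 31 were lower and 1 was higher, and in the large subunit 30 of 46 were lower and 3 higher. Under scaling by library totals alone the all-gene median moved by 0.23, 38 members were lower and 20 higher, and 66.1% of all calls were higher, against 49.2%. The members' median then stood at -0.12, and was 0.34 below that of all genes, as with TMM. With the GC content and length trend removed, 44 members were lower and 12 higher.

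RPL22L1, RPL27, RPL31, RPL36A-HNRNPH2, RPS27L and RPS23 differed most between the models among called members, all lower in OA. RPL31 was at 259, 247 and 239 CPM in DNL and 133, 133 and 122 CPM in OA, with WT values of 234, 203 and 218 CPM between them (log2 fold change -0.94, SE 0.0574, adjusted p = 1.33e-08). RPS27A, RPS6 and RPL5 were lower by 0.79, 0.69 and 0.55 on the log2 scale. The 4 members higher in OA were RPL8, RPL10, RPL4 and RPSA, with log2 fold changes of 0.38, 0.30, 0.27 and 0.19. RPL8 measured 136, 159.5 and 147 CPM in OA, all above the DNL and below the WT libraries. RPL10 and RPL4 likewise lay between, at 479.5 ± 15.4 and 282 ± 5.10 CPM in OA. The stalk genes were called in neither direction, and neither were RPS14, RPS19, RPS3 and RPL11. RPLP0 was called higher in OA without DNL replicate 3 (adjusted p = 0.027) or OA replicate 1 (adjusted p = 0.0101), and RPL11 lower without DNL replicate 3 (adjusted p = 0.0398) or WT replicate 1 (adjusted p = 0.0426). RPLP0 was also called higher with RLE in place of TMM scaling (adjusted p = 0.0423), with DESeq2 (adjusted p = 0.0229) and with limma-voom (adjusted p = 0.0415). With the GC content and length trend removed it was called higher too (adjusted p = 0.000237). RPS3 was called lower without OA replicate 2 (adjusted p = 0.0461). With replicate number as a further factor RPL11 was also called lower (adjusted p = 0.00188). Under scaling by library totals RPLP0, RPS14, RPLP2, RPS19 and RPS3 were called higher in OA than in DNL, by 0.33, 0.25, 0.22, 0.16 and 0.14.

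Some paralogues encode proteins that can take the place of a standard subunit protein, which was not tested for any pair here. RPL22L1, the partner of RPL22, had the largest fold change of any member with over 5 CPM. It measured 39.8, 38.9 and 39.6 CPM in WT, 32.98, 30.6 and 32.1 CPM in DNL, and 8.92, 8.27 and 7.48 CPM in OA. No group overlapped another. The log2 fold change was -2.25 in OA against WT (SE 0.0847, adjusted p = 2.37e-10), a level 4.76 times lower, and -0.30 in DNL (adjusted p = 0.00345). OA and DNL differed by -1.95. All 3 calls were kept under each of the 19 alternatives run. RPL22 itself fell from 193 ± 18.7 to 119 ± 11.9 CPM in OA and was not called in DNL, at 188 ± 14.6 CPM. The window of RPL22L1 was the paralogue window with a TOP start.
RPL22L1 (chr3:170870176-170870225, minus strand): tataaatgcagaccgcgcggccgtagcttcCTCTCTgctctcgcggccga
Its run of 6 pyrimidines compares with 7 in the RPL22 window shown above. Of the 31-base words of the main GENCODE transcript of RPL22L1, 4.3% occur in any other annotated gene.

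The ratio of a paralogue to its partner within a library does not depend on scaling. The log2 ratio of RPL22L1 to RPL22 was -2.43, -2.23 and -2.19 in WT, -2.60, -2.64 and -2.42 in DNL, and -3.85, -3.88 and -3.82 in OA. OA lay below both other groups, by 1.57 against WT. With 3 against 3 samples the exact permutation test (two-sided) cannot go below p = 0.1, which it reached, with an adjusted p = 0.257 over 18 tests. None of these tests could therefore pass. For RPS27L to RPS27, the ratio was -1.05 ± 0.0431 in WT, -0.65 ± 0.0805 in DNL and -0.73 ± 0.113 in OA, with both models above WT without overlap. For RPL7L1 to RPL7 it was -0.37 ± 0.214 in WT, -0.73 ± 0.0451 in DNL and -0.32 ± 0.0821 in OA. RPL26L1 to RPL26 stood at -5.44 ± 0.167, -5.34 ± 0.199 and -5.03 ± 0.0788 in the same order, and OA and WT did not overlap.

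RPS27L, a paralogue of RPS27 and a p53 target, rose most among called members in DNL. It measured 56.1, 52.3 and 51.2 CPM in WT, 85.4, 85.6 and 82.1 CPM in DNL, and 43.98, 47.4 and 43.2 CPM in OA. The 3 groups were separate, with DNL highest and OA lowest (log2 fold change 0.66 in DNL, adjusted p = 7.51e-07, and -0.24 in OA, adjusted p = 0.00415). RPS27 moved in the same directions, at 109.8 ± 4.47, 133 ± 5.83 and 74.6 ± 6.12 CPM. The start of RPS27 has a TOP run of 7 pyrimidines and the start of RPS27L is a G.
RPS27 (chr1:153990732-153990781, plus strand): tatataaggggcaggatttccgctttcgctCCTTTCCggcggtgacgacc
RPS27L (chr15:63157458-63157507, minus strand): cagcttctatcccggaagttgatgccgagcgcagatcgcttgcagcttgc
RPL7L1, a partner of RPL7, fell from 327 ± 21.2 CPM in WT to 262 ± 4.64 in DNL and 247 ± 4.67 in OA. The difference between the models was not called (adjusted p = 0.111) but was without WT replicate 1 (adjusted p = 0.0498).

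The other paralogues were low. RPL26L1, at 8.82 ± 1.37 CPM in WT, and RPL36AL, at 13.8 ± 3.04 CPM, were called in no comparison. RPL39L, a testis-enriched paralogue, averaged 6.22 counts per library and was at 0.161, 0.0677 and 0.0732 CPM in WT. It was at 0.474, 0.395 and 0.594 CPM in OA, where a count of 3 is worth 0.105 to 0.383 CPM of the library total. It passed the filter on low counts through these OA values and DNL replicate 3, so its call in OA is given as a description only. In DNL it was at 0.216, 0.333 and 0.416 CPM and was not called (adjusted p = 0.0501), and was called without WT replicate 1 (adjusted p = 0.0449). RPL3L, the form of heart and skeletal muscle, averaged 21.3 counts and was at 0.943 ± 0.0638, 0.948 ± 0.390 and 0.632 ± 0.158 CPM, with no call. RPL10L, an autosomal copy of RPL10, had no counts in any library, which allows up to 3 counts in each.

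Of the 31-base words in the main GENCODE transcripts of the read-through rows, 94.7 to 98.4% occur in another listed gene. The estimator could therefore split reads between these rows and other genes. The main transcripts of RPL17-C18orf32 and RPS10-NUDT3 have 1440 and 2911 bases, against 669 for RPL17 and 644 for RPS10. Part of the shared sequence may therefore be that of the neighbouring gene. RPL17-C18orf32 rose in DNL, from 27.3 ± 2.04 to 37.5 ± 3.13 CPM (adjusted p = 0.00158). It was at 22.3 ± 2.70 CPM in OA, a call lost without OA replicates 1 or 3 or WT replicates 1 or 2 (adjusted p = 0.032 with all libraries, and 0.0792, 0.102, 0.131 and 0.062). RPL36A-HNRNPH2 measured 17.1, 10.2 and 15.2 CPM in WT and 6.08, 8.10 and 5.94 CPM in OA, without overlap (log2 fold change -1.05, adjusted p = 0.00391). RPL36A was at 5.20 ± 0.661 CPM in WT and was called in no comparison, and without DNL replicate 3 (adjusted p = 0.0463) or OA replicate 2 (adjusted p = 0.0259) it was called lower in OA than in DNL. RPS10-NUDT3 fell from 25.5 ± 1.70 CPM to 16.4 ± 3.17 in DNL and 17.5 ± 2.29 in OA. RPS10 itself was at 386 ± 25.5, 409.6 ± 18.8 and 292 ± 4.27 CPM. Over all 88 members, a median of 46.4% of the 31-base words of a member's main GENCODE transcript also occur in another annotated gene, pseudogenes included. The median for another gene of the table was 1.25%. That share was over 50% in 7 members, among them RPL12 at 68.8%, and RPL10 and RPSA were at 48.8 and 40.5%. RPL7A was at 7.4%. Of the words of RPSA and RPL7A, the 2 subunit genes that rose in OA, 73.4 and 82.0% occur in another annotated gene. Reads of such members could be split as well, which was not tested. Which sequences the index of the estimator held is not stated in the labels.

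Levels between genes can be compared only per length, here CPM per kb of a main transcript from GENCODE, which is approximate because the transcripts in use are not known. By these lengths RPS15A was highest, at 1627 CPM per kb in WT, followed by RPS21 at 1214 and RPS2 at 1169.9. The main transcript was long for some members, with 7686 bases for RPL37, 4916 for RPL27A and 2821 for RPL23. RPL23, at 548 CPM in WT, thus stood at 194 CPM per kb. A shorter transcript in use would raise such values, so the ranking holds for these lengths only. RPS15A and RPS21 fell in OA, to 948 and 1021 CPM per kb, and RPS2, at 1096, was not called, so that RPS2 then held the highest level. Below 1 CPM per kb in every group stood RPL10L, RPL3L and RPL39L. Members' transcripts were short, with a median of 817.5 bases against 2913 for tested genes, and of similar GC content (49.5% for both). Over 87 members, Spearman's rho of GC content with the log2 fold change was -0.27 in DNL against WT, 0.21 in OA against WT and 0.44 in OA against DNL. The points are genes of the same 9 libraries, so this is a description, and over 13613 tested genes rho was -0.13, -0.01 and 0.09.

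Other genes of the pathway were read from lists, whose differences from the members were not tested. Over all tested genes 26.8% were lower and 27.1% higher in DNL against WT, 29.7% and 30.4% in OA against WT, and 31.9% and 30.9% in OA against DNL, and the shares of several lists lie near these. Of the subunit proteins with other symbols, RACK1, a signalling scaffold on the small subunit, fell from 873 ± 53.3 to 649.8 ± 43.6 CPM in OA. FAU, a fusion with a ubiquitin-like protein, fell by 0.27 in DNL and was not called in OA against WT. Of 19 other TOP mRNAs, 9 were lower and 2 higher in OA than in WT, with a median of -0.21, and 7 were lower and 1 higher in DNL. EEF1B2, an exchange factor of elongation, fell from 249.6 ± 16.2 to 147 ± 6.61 CPM in OA, and EEF1A1, the elongation factor itself, by 0.38. EIF3E was the TOP mRNA that rose in DNL. Of 77 mitochondrial ribosomal protein genes tested, added to the lists later, 37 were lower and 4 higher in OA than in WT (median -0.28), and 25 lower and 9 higher in DNL (median -0.10).

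Of 40 biogenesis factors, 28 (70%) were lower and 2 higher in DNL than in WT (median -0.38), 18 lower and 11 higher in OA, and 5 lower and 20 higher in OA than in DNL. RRP12, needed for export of the subunits, measured 189.99 ± 1.77 CPM in WT, 102 ± 6.57 in DNL and 246 ± 4.59 in OA. DDX21, a nucleolar helicase, fell by 0.59 in DNL and was not called in OA (726 ± 6.92 against 721 ± 29.1 CPM in WT). Among 34 translation factors, 20 were lower and 5 higher in DNL, 13 and 10 in OA, and 5 and 18 in OA against DNL. EIF4G2 fell by 0.87 in DNL and by 0.33 in OA. Of 15 chaperones and importers, 8 were lower and 2 higher in DNL, and 5 lower and 8 higher in OA, where IPO7 rose by 0.49. For RNA polymerases I and III, 9 of 23 (39.1%) were lower and 3 (13.0%) higher in DNL, and 9 and 5 in OA, with RRN3, the initiation factor of polymerase I, higher by 0.80 in OA. Among 21 regulators of mTORC1 and TOP mRNAs, 12 were lower and 4 higher in DNL, and 11 and 7 in OA. SESN2, a leucine sensor that restrains mTORC1, measured 112 ± 2.19 CPM in WT, 27.95 ± 2.68 in DNL and 118 ± 9.64 in OA, and EIF4EBP1 fell by 1.13 and 1.24. In the quality control list, 5 of 14 (35.7%) were lower and 4 (28.6%) higher in DNL, and 2 and 7 in OA, where LTN1, the ligase for stalled chains, rose by 0.81.

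**Figure D4:**
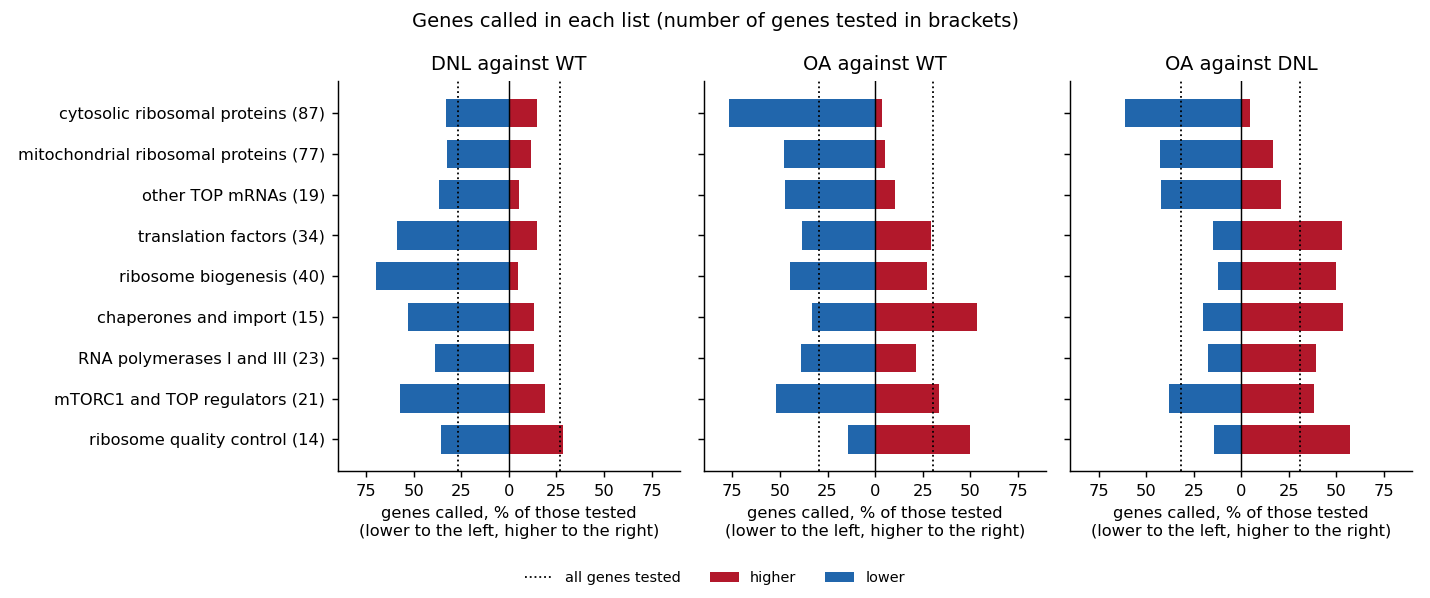
Percent of tested genes called lower (left of 0) and higher (right of 0) in each list and comparison, with dotted lines at the percentages over all tested genes. In OA against WT 77.0% of cytosolic ribosomal protein genes were lower, against 48.1% of mitochondrial ones and 45% of biogenesis factors, and in DNL against WT 70% of biogenesis factors were lower, against 33.3% of the cytosolic ribosomal protein genes.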

How the data were processed

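The authors deposited estimated counts per gene from stranded, rRNA-depleted libraries, made with kallisto 0.48.0 on GRCh38 after FastQC 0.11.9, per the submitters' processing notes. Neither the annotation nor the strand setting is given in the sources used here. Groups came from the sample titles. Counts were rounded, filtered with filterByExpr, TMM-scaled and tested with edgeR 4.0.16 (quasi-likelihood, R 4.3.3, group as the only factor). The fit was run on simulated data with 200 changed genes. In the real data 3692 genes were called higher and 3650 lower in DNL against WT, so the simulation does not cover changes this broad. Values are mean ± SD (n = 3). The biological coefficient of variation was 10.6%. Replicates differed by more than sampling noise (chi-square per degree of freedom 5.29 to 15.8). Symbols were matched for 19316 of 19317 identifiers. Named members were, per comparison, up to 6 largest rises and falls that were called, reached 5 CPM and did not overlap, a panel of subunit genes, paralogues with partners, read-through rows and the 3 most and least abundant per length, and in companion lists those with the smallest adjusted p. Other names were chosen after their values were seen. Members and lists were chosen with earlier results of these data known. Paralogue ratios used log2 counts + 0.5, and pairs under 10 mean counts were left out. Alternatives were other scalings, no filter, fewer samples, DESeq2 1.42.0, limma-voom (limma 3.58.1), a replicate block and removal of a GC content and length trend fitted on other genes. A few genes are counted in the totals and not reported by name here.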

Additional observations from a re-analysis of the deposited data

How the results depend on the processing

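Of 2240 alternative values for 118 named results, 2140 kept their call or stayed uncalled. A further 48 gained a call, 29 lost one and 23 changed sign. Sign was not compared where a result was uncalled both in the main fit and in the alternative. Scaling by library totals gave 6 higher and 52 lower members in DNL against WT (median -0.24) and 20 higher in OA against DNL (median -0.12). Under it DNL against WT turned to -0.0038 for RPL5, -0.16 for RPS6, -0.13 for RPL7, -0.16 for RPS3, -0.13 for RPL26 and -0.15 for RPSA, and OA against DNL to 0.024 for RPL3, 0.16 for RPS19, 0.14 for RPL7L1, 0.14 for RPS3, 0.061 for RPS21 and 0.22 for RPLP2. Without the GC content and length trend, 7 rose and 44 fell in DNL against WT, 12 were higher in OA against DNL (median -0.21), and DNL against WT became -0.13 for RPS3, -0.16 for RPL26 and -0.088 for RPS27, with RPS3 at 0.12 in OA against DNL. The cause was not tested.

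Over all tested genes replicate numbers did not pair the samples (correlations of same-numbered deviations -0.019 to 0.053). In some members, such as RPLP1 and RPL27, replicate 1 was nevertheless the highest in each group. The replicate block alone gave 15 higher and 33 lower, 3 and 67, and 4 and 57 members in DNL against WT, OA against WT and OA against DNL. The replicate block with that trend removed gave 8 higher and 47 lower in DNL against WT, 5 higher in OA against WT and 13 higher in OA against DNL (median -0.20). It turned RPS3, RPL26 and RPS27 to -0.13, -0.16 and -0.092 in DNL against WT, RPLP0 to 0.10 in OA against WT, and RPLP1, RPS3 and RPS21 to 0.19, 0.12 and 0.0037 in OA against DNL.

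Leaving out single libraries gave 10 to 22 higher and 19 to 32 lower members in DNL against WT, 3 to 3 and 62 to 68 in OA against WT, and 4 to 5 and 50 to 57 in OA against DNL. The log2 ratio differences ran from -0.067 to 0.13 for RPL7L1 to RPL7 (OA against WT), from -0.0072 to 0.20 for RPL26L1 to RPL26 (DNL against WT), and for RPL3L to RPL3 from -0.30 to 0.20 (DNL against WT) and -0.44 to 0.055 (OA against DNL). A pseudocount of 5 turned RPL3L to RPL3 to 0.18 (OA against WT) and 0.068 (OA against DNL), at 21.3 mean counts of RPL3L. The members' share was 3.34, 3.04 and 2.56% in WT, DNL and OA outside the 20 most abundant other genes, and 2.60 and 2.41% in DNL and OA without mitochondrially encoded transcripts. Depth limits RPL39L, RPL3L and RPL10L, since 3 counts are worth 0.0697 to 0.383 CPM.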
